A study of Ovis aries with 9 samples.

Results

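The liver transcriptome of sheep kept on a basal diet was described from the 3 control libraries of a feeding series of 9 libraries. The control libraries were chosen by their diet label, and genes were ranked by their mean over these 3. All 21257 genes of the deposited table were considered, and 17343 of them were above 0 in a control library. The sheep were male Tan sheep, a Chinese breed, aged 5 months and weighing 31.38 ± 0.88 kg at the start, and the control animals received the basal diet with 0% succinate for 60 days after a pretrial period of 10 days. The study held 30 sheep in 3 groups, with 5 stalls in each and 2 sheep to a stall. The other 6 libraries came from sheep given succinate and are not described here. Liver taken at slaughter was frozen in liquid nitrogen and sequenced as paired reads from total RNA extracted with TRIzol, per the labels' protocols. Whether the 3 libraries are 3 animals is not stated in the labels, so the spread between libraries may be technical in part, and with a single group no test was run and no p-value is given.

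The adult liver makes most proteins of blood plasma, handles nutrients that arrive in portal blood, and turns ammonia into urea and lipids into lipoproteins. In ruminants the rumen microbes ferment carbohydrate to short-chain fatty acids before it can be absorbed as glucose, so the liver releases glucose throughout the day and makes it largely from propionate. Propionate enters through propionyl-CoA and methylmalonyl-CoA to succinyl-CoA and then follows the tricarboxylic acid cycle to oxaloacetate and phosphoenolpyruvate. Fatty acid synthesis takes place mainly in adipose tissue in ruminants. Roles given below are those known for mammals, mostly from human and rodent work where no sheep work is named.

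Values are FPKM, fragments per kilobase of gene model and per unit of sequencing depth, so levels are compared between genes per length. Values of a gene are listed in the order control 1, control 2 and control 3 unless the library is named. The libraries held 14100354, 15807343 and 13931688 reads as recovered from the steps of the FPKM values. At this depth 1 FPKM stood for 42.5 to 48.3 reads on a gene model of the median length of 3.05 kb, and 3 reads stood for 0.0622 to 0.0705 FPKM, below which a gene of that length could be missed. Intervals from read numbers would cover counting error only. The control libraries had 16355, 16340 and 16123 genes above 0, and 15250 genes were above 0 in all 3. No pair of libraries agreed within sampling noise, with a chi-square per degree of freedom between 89.4 and 181. The correlation between libraries across 11822 genes with a mean of at least 1 FPKM was 0.944 to 0.955 (Pearson, log2 scale, across genes, which are not independent replicates).

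A few genes took much of the signal. The mean reached 1000 FPKM for 54 genes, 100 FPKM for 574 genes, 10 FPKM for 4687 genes and 1 FPKM for 11822 genes. The highest 10 genes held 16.7%, 20.2% and 19.2% of the FPKM sum in the 3 libraries, a mean of 18.7% ± 1.82 (SD, n = 3), and the highest 100 held 45.5% ± 3.60. Of those 100 genes, 74 were among the highest 100 of every library, and 24 carried only a locus identifier with no symbol. Albumin, the main carrier protein of plasma, was first at 25151 ± 16028 FPKM (SD, n = 3). It alone held 4.01%, 2.99% and 9.26% of the FPKM sum, so a large part of its spread came from control 3.

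The 30 highest genes with a symbol were of 3 main kinds. The first was secreted plasma protein, with all 3 fibrinogen chains, apolipoproteins and carriers. The second was the mitochondrial genome, whose protein-coding genes made up 8 of the 30. The third was cytosolic, peroxisomal and microsomal enzyme, with the ethanol-inducible cytochrome CYP2E1 at 4823 FPKM, catalase (CAT) at 2727 FPKM and alcohol dehydrogenase ADH1C at 1790 FPKM. EEF1A1, the elongation factor of translation, was at 2142 FPKM.

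**Figure D1:**
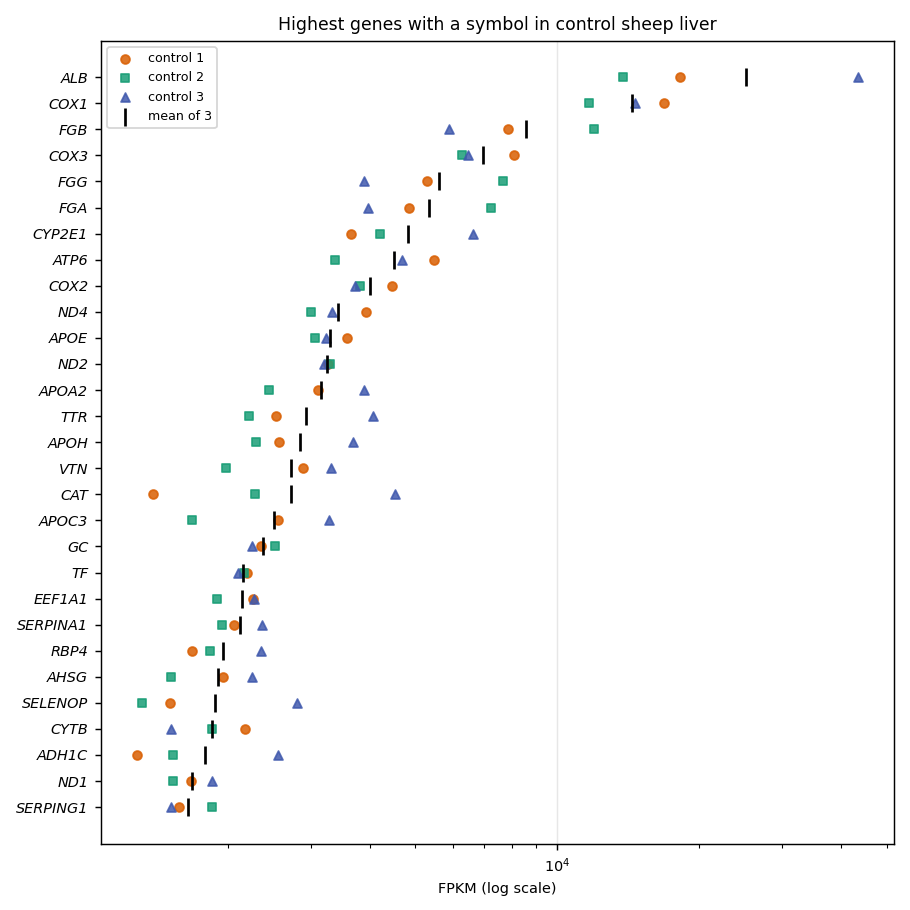
FPKM (log axis) of the genes with a symbol and the highest means in control sheep liver, with a point per control library and a bar at the mean of 3. Albumin (ALB) in control 3 lies far to the right of the other points, while ND2 and TF have their 3 points almost on top of each other.

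Plasma carriers held 9.79% ± 3.79 of the FPKM sum (SD, n = 3), and 15 of the 19 genes listed were in the table. Their median was 1907 FPKM, against 3.47 FPKM over all 17343 genes above 0. Albumin had 18208, 13765 and 43480 FPKM. Transthyretin (TTR), a carrier of thyroid hormone and of retinol-binding protein, had 2529.7, 2219.6 and 4058 FPKM. Control 3 was the highest of the 3 for both. Transferrin (TF), which carries iron, had 2196, 2161 and 2099 FPKM and the vitamin D carrier GC had 2350.4, 2512 and 2252 FPKM, so these carriers varied far less than albumin.

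Coagulation genes held 5.10% ± 1.54 of the FPKM sum, and all 19 that were in the table reached 1 FPKM. The 3 fibrinogen chains stood together. FGB had 7861, 11977 and 5886 FPKM, FGG had 5299, 7655 and 3884 FPKM and FGA had 4843, 7222 and 3962 FPKM. Control 2 was highest and control 3 lowest for each of the 3 chains. Plasminogen (PLG), the zymogen that dissolves fibrin, had a mean of 1131 ± 289.9 FPKM and prothrombin (F2) of 660.4 ± 44.6 FPKM. Factor VIII (F8), which is made largely by endothelial cells, was the lowest of the list at 7.92 ± 1.46 FPKM, a gene chosen after its values were seen. Protease inhibitors had a median of 637 FPKM, led by SERPINA1, the inhibitor of neutrophil elastase, at 2119 ± 217 FPKM. SERPING1, the C1 inhibitor, followed at 1648 ± 181 FPKM, and ITIH4, an inter-alpha-trypsin inhibitor family protein, at 939, 2240.5 and 317 FPKM.

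Of 23 complement genes listed, 18 were in the table and all 18 were above 10 FPKM, and the other 5 were not analysed here. The terminal component C9 had 901, 1404 and 871 FPKM, the alternative pathway protease CFB had 882, 1277 and 881 FPKM and the classical pathway protease C1R had 822, 1041 and 747 FPKM. Control 2 was highest for each. Of the acute phase list, 8 of 14 genes were in the table. The others were not analysed here, so the level of the list as a whole is not known. FGL1, a fibrinogen-like protein, was at 1389 ± 172 FPKM, the copper carrier ceruloplasmin (CP) at 651, 988 and 296 FPKM and hepcidin (HAMP), the hormone that restrains iron export, at 341, 611 and 795 FPKM.

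Of the apolipoproteins and lipoprotein assembly genes, 15 of 19 were in the table, with a median of 333 FPKM and 2.63% ± 0.44 of the FPKM sum. APOE, a ligand for lipoprotein receptors, was the highest at 3287 ± 265 FPKM, followed by APOA2 at 3147 ± 721 FPKM and APOC3, an inhibitor of lipoprotein lipase, at 2503 ± 799 FPKM. APOA1, the main protein of high-density lipoprotein and chosen here after its values were seen, was at 333 ± 70.7 FPKM. APOE exceeded APOA1 by a factor of 10.1 ± 1.85 (SD, n = 3), in all 3 libraries.

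The 13 mitochondrially encoded protein genes held 8.92% ± 1.27 of the FPKM sum. Cytochrome oxidase subunit COX1 had 16823, 11657 and 14627 FPKM and COX3 had 8098, 6262 and 6476 FPKM. ND2, a subunit of complex I, had 3258, 3298 and 3202 FPKM, one of the smallest spreads of any abundant gene. A total of 3 members were listed very low for genes of the same genome. ND5, ND6 and ATP8, chosen after their values were seen, had means of 9.16, 4.91 and 2.89 FPKM, and ND6 lies on the other strand of the genome from the rest of the protein genes. The assignment of reads among overlapping mitochondrial genes is not given. The 30 nuclear genes of the respiratory chain had a median of 44.4 FPKM, led by the ATP synthase subunits ATP5F1B at 247 ± 11.6 FPKM and ATP5F1A at 187 ± 17.3 FPKM. Ribosomal proteins held 4.24% ± 0.52 of the FPKM sum over 74 genes, with a median of 253 FPKM.

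Of the 24 tricarboxylic acid cycle genes, all reached 1 FPKM and the median was 58.2 FPKM. SUCLG2, the GTP-forming subunit of succinyl-CoA ligase, had 153, 145 and 209.9 FPKM, the succinate dehydrogenase subunit SDHA had 151, 122 and 179 FPKM and mitochondrial malate dehydrogenase MDH2 had 152, 125 and 151 FPKM. SUCLG2 exceeded SUCLA2, the ATP-forming subunit of the same ligase, by a factor of 29.2 ± 14.3, in all 3 libraries. PDK4, the kinase that turns off pyruvate dehydrogenase, exceeded its target subunit PDHA1 by a factor of 3.31 ± 0.70. Both of these pairs were chosen with earlier results in view.

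All 10 genes of the route from propionate to succinyl-CoA that were in the table were above 1 FPKM, and their median was 71.4 FPKM. The route starts with activation of propionate, for which ACSS3, a mitochondrial acyl-CoA synthetase that accepts propionate, had 62.4, 76.5 and 68.98 FPKM. Propionyl-CoA carboxylase followed, with its beta subunit PCCB at 58.7, 56.7 and 105 FPKM and its alpha subunit PCCA at 39.8, 41.6 and 58.1 FPKM. PCCB exceeded PCCA by a factor of 1.55 ± 0.23. The epimerase MCEE had 73.4, 96.1 and 91.1 FPKM. Methylmalonyl-CoA mutase (MMUT), the vitamin B12 enzyme that forms succinyl-CoA, was the highest of the route with 136, 194 and 235 FPKM. Control 1 had the lowest MMUT level and control 3 the highest. The enzymes that prepare and load the B12 cofactor were lower, with MMAB at 21.7 ± 1.56 FPKM and MMAA at 2.86 ± 0.529 FPKM.

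Gluconeogenic genes had a median of 67.6 FPKM over 17 genes, 16 of which reached 1 FPKM. Cytosolic PEPCK (PCK1), which makes phosphoenolpyruvate from oxaloacetate, had 256, 570.1 and 792 FPKM. Mitochondrial PEPCK (PCK2) had 119.9, 141 and 188 FPKM, and the ratio of PCK2 to PCK1 was 0.32 ± 0.13. Both forms were thus present, the cytosolic one higher in each library. Fructose-1,6-bisphosphatase (FBP1) had 275, 315 and 574 FPKM, with control 3 the highest, while its muscle form FBP2 had 1.97, 3.14 and 6.91 FPKM. Pyruvate carboxylase (PC), which brings in carbon from lactate and alanine, had 68.9, 169 and 67.7 FPKM, and control 2 stood well above the other 2 libraries. Glucose-6-phosphatase (G6PC1), the last step of glucose release, had 52.2, 64.1 and 56.2 FPKM and overlapped closely between libraries. The alanine aminotransferase GPT was listed at 0.312, 0.504 and 0.592 FPKM, below its mitochondrial form GPT2 at 9.41, 15.5 and 17.9 FPKM. Serine dehydratase (SDS) had 62.97, 87.05 and 10.5 FPKM, and control 3 was the low one.

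**Figure D2:**
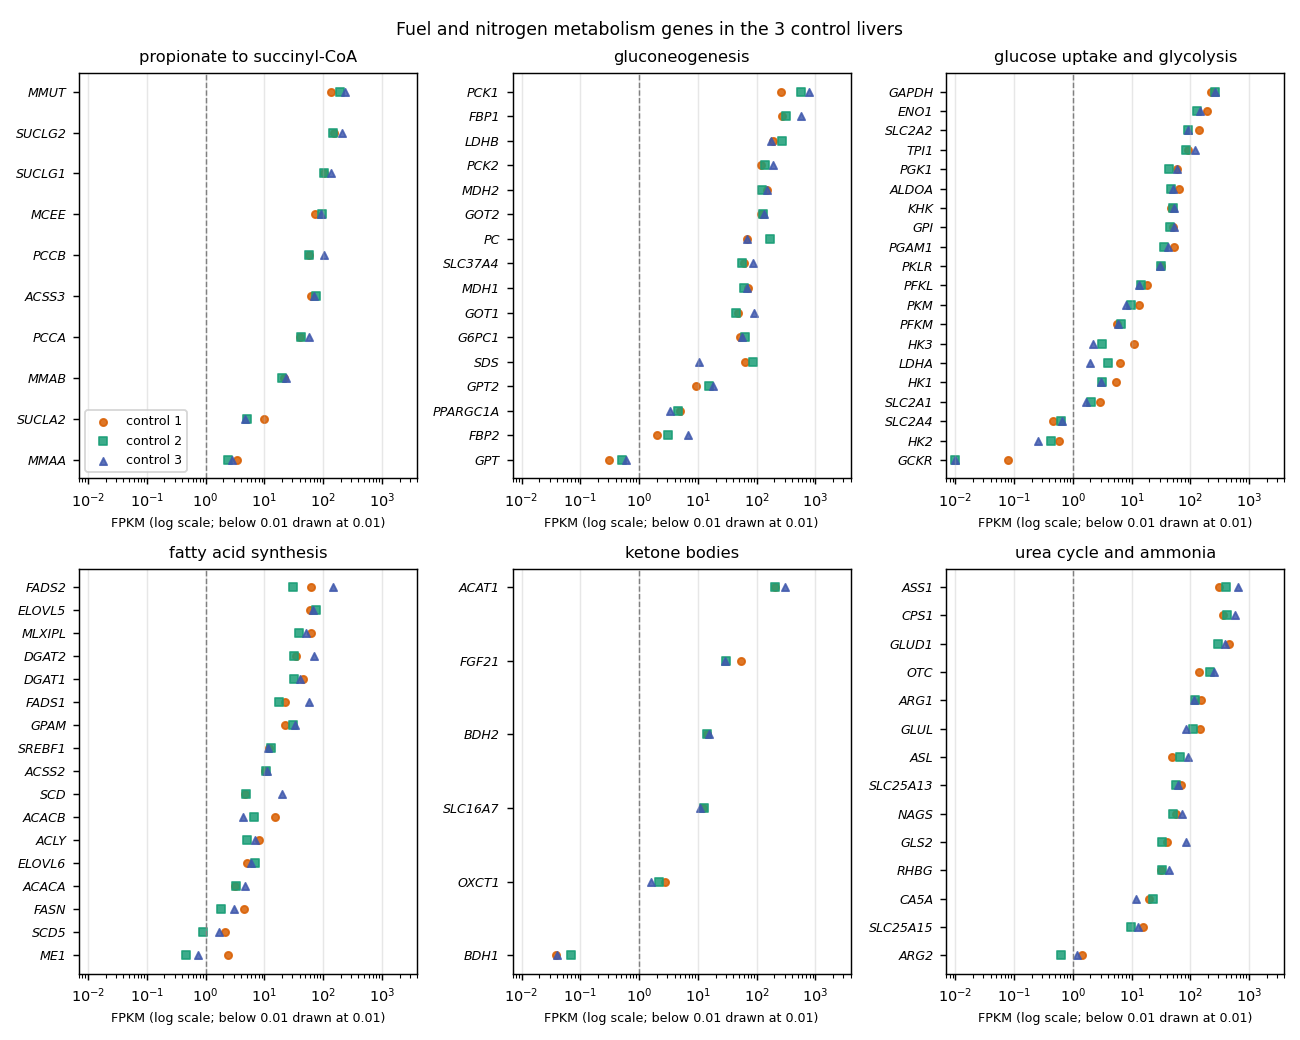
FPKM (log axis) of members of 6 metabolic gene lists, with a point per control library, values below 0.01 drawn at 0.01 and a dashed line at 1 FPKM. PCK1 and MMUT sit above 100 FPKM, while GCKR and BDH1 sit near or below 0.1 FPKM.

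Glucose uptake and glycolysis genes were lower, with a median of 15.3 FPKM over 21 genes, of which 17 reached 1 FPKM. GCKR, a regulatory protein that binds fructose phosphates, had 0.0779, 0 and 0 FPKM. It rested on 5, 0 and 0 reads, so its transcript was at the limit of what this depth detects. Of the hexokinases, HK1 was at 5.36, 3.10 and 3.04 FPKM, HK2 at 0.576, 0.418 and 0.257 FPKM and HK3, a form found in myeloid cells, at 10.8, 3.13 and 2.24 FPKM. The uniporter SLC2A2 (GLUT2) of the hepatocyte surface had 141, 92.5 and 90.6 FPKM. It exceeded SLC2A1 (GLUT1) by a factor of 49.1 ± 4.10 in all 3 libraries, and the insulin-responsive SLC2A4 was at 0.581 ± 0.111 FPKM.

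For pyruvate kinase the liver form stood above the form of other tissues. PKLR, the liver and red cell pyruvate kinase, had 32.3, 31.97 and 30.3 FPKM, against 13.7, 9.76 and 7.95 FPKM for PKM. Lactate dehydrogenase went the other way from the rodent pattern of a mainly LDHA liver. LDHB had 193, 269 and 178 FPKM and LDHA had 6.44, 4.05 and 1.99 FPKM, a ratio of 62.0 ± 30.1. Glycogen phosphorylase PYGL, which releases glucose from glycogen, had 175, 149 and 177 FPKM and exceeded the brain form PYGB by a factor of 81.1 ± 37.6. The liver glycogen synthase GYS2 exceeded the muscle form GYS1 by a factor of 3.87 ± 1.04.

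Fatty acid synthesis genes had the lowest median of the metabolic lists shown in the plot of metabolic genes, at 10.8 FPKM over 17 genes. Fatty acid synthase (FASN) had 4.56, 1.85 and 3.0 FPKM and acetyl-CoA carboxylase ACACA had 3.14, 3.26 and 4.65 FPKM. ATP citrate lyase (ACLY), which supplies acetyl-CoA from citrate, had 8.14, 5.16 and 6.95 FPKM, and the cytosolic malic enzyme ME1, a source of NADPH, had 2.36, 0.469 and 0.753 FPKM. The acetate-activating enzyme ACSS2 was steadier, at 10.3, 10.8 and 11.3 FPKM. ACSS2 exceeded FASN by a factor of 3.95 ± 1.79. Enzymes that desaturate and lengthen fatty acids were higher, with FADS2 at 63.2, 31.3 and 149 FPKM, FADS1 at 22.4, 17.6 and 56.7 FPKM and ELOVL5 at 59.6, 75.3 and 68.7 FPKM. Control 3 was the highest for both desaturases. The delta-9 desaturase SCD had 4.71, 4.93 and 20.2 FPKM, again with control 3 apart. ACACB, whose product malonyl-CoA restrains mitochondrial fatty acid uptake, had 15.4, 6.57 and 4.38 FPKM, with control 1 apart.

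Fatty acid oxidation stood well above synthesis. Its 26 genes had a median of 113 FPKM, and 15 of them were above 100 FPKM. The enoyl-CoA hydratase ECHS1 had 774, 609 and 1147 FPKM, the thiolase ACAA2 had 338, 509 and 448 FPKM and the acyl-CoA synthetase ACSL1 had 339.9, 379.7 and 504 FPKM. The carnitine palmitoyltransferase CPT1A exceeded FASN by a factor of 29.6 ± 15.3. For ketone bodies, the mitochondrial thiolase ACAT1 had 203, 206 and 301 FPKM, with control 3 the highest. The dehydrogenase BDH1, which interconverts acetoacetate and 3-hydroxybutyrate in mitochondria, had 0.0389, 0.0694 and 0.0394 FPKM from 1, 2 and 1 reads, and the cytosolic BDH2 was at 14.5, 14.1 and 15.5 FPKM. Ketone use has its key enzyme in OXCT1, which had 2.79, 2.19 and 1.59 FPKM. The fasting hormone FGF21 had 53.2, 29.5 and 28.6 FPKM.

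Cholesterol synthesis and uptake genes had a median of 22.6 FPKM over 21 genes, with SC5D at 100.5, 99.8 and 167 FPKM and MSMO1 at 88.3, 74.9 and 157 FPKM, which act late in sterol synthesis. Control 3 was the highest for both. Bile acid genes had a median of 60.5 FPKM over the 12 of 18 in the table, led by the racemase AMACR at 242 ± 109 FPKM, the bile acid CoA ligase SLC27A5 at 231 ± 43.4 FPKM and the reductase AKR1D1 at 169 ± 42.3 FPKM.

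Nitrogen genes had a median close to that of the gluconeogenic genes, which was 67.6 FPKM. The 14 genes of the urea cycle and ammonia handling had a median of 65.3 FPKM. Argininosuccinate synthase (ASS1) had 308, 408 and 660.1 FPKM and carbamoyl phosphate synthetase (CPS1), which fixes ammonia, had 366, 415 and 569 FPKM. In both, control 3 was the highest and control 1 the lowest. Ornithine transcarbamylase (OTC) had 140.5, 220.2 and 257 FPKM, arginase ARG1 had 155, 118 and 117 FPKM and argininosuccinate lyase (ASL) had 48.3, 65.8 and 91.2 FPKM. ARG1 exceeded the kidney-type ARG2 by a factor of 131 ± 47.9. NAGS, which makes the activator of CPS1, had 57.1, 50.4 and 73.5 FPKM. Glutamine synthetase (GLUL), which captures ammonia near the hepatic vein, ran the other way between libraries with 149, 113 and 83.1 FPKM. Glutamate dehydrogenase (GLUD1) had 459, 298 and 396 FPKM.

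Amino acid catabolism had a median of 68.1 FPKM over 29 genes. Leading members act on tyrosine. The dioxygenase HPD had 535, 667 and 1140.1 FPKM and the homogentisate oxidase HGD had 349.9, 335 and 357 FPKM. HGD varied little while HPD was highest in control 3. Of the methionine and one-carbon genes, 15 of 16 reached 1 FPKM, led by the folate dehydrogenase ALDH1L1 at 456 ± 123 FPKM, the creatine-forming GAMT at 384 ± 93.1 FPKM and the serine hydroxymethyltransferase SHMT1 at 277 ± 62.1 FPKM.

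Xenobiotic metabolism held 2.57% ± 0.97 of the FPKM sum, with 21 of 34 listed genes in the table and a median of 188 FPKM. CYP2E1 had 3645, 4206 and 6619 FPKM, ADH1C had 1283, 1527 and 2560.4 FPKM and the epoxide hydrolase EPHX1 had 634, 805 and 1337 FPKM. All 3 were highest in control 3 and lowest in control 1. Cytochrome P450, glutathione transferase and glucuronosyltransferase genes have near-identical copies, and how shared reads were assigned is not given, so their single values are uncertain. Antioxidant genes had a median of 53.1 FPKM over 22 genes, and of 32.0 FPKM without control 1. Catalase, the peroxisomal enzyme that removes hydrogen peroxide, had 1388, 2279 and 4513 FPKM. The selenium carrier SELENOP had 1504, 1315 and 2808 FPKM and the cytosolic superoxide dismutase SOD1 had 573, 668 and 1059 FPKM. Of the heme and iron genes, ferritin heavy chain (FTH1), which stores iron, had 2067, 1246 and 1467 FPKM. SLC39A14, a transporter of zinc, iron and manganese, had 148, 179.8 and 102 FPKM, and the zinc exporter SLC30A1 had 59.5, 52.2 and 42.2 FPKM.

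All 22 liver transcription factors listed were above 1 FPKM, with a median of 20.7 FPKM. CREB3L3, a factor released from the endoplasmic reticulum that acts on lipid genes, was the highest at 388, 404 and 333 FPKM. XBP1, a factor of the unfolded protein response, had 212, 160 and 99.03 FPKM and CEBPA, a factor of hepatocyte identity, had 88.7, 84.1 and 102 FPKM. HNF4A, a further hepatocyte factor, had 89.6, 59.2 and 68.3 FPKM. The retinoid receptor RXRA was listed at 4.32 ± 0.648 FPKM on a gene model longer than 20 kb. There were 44 such models among the 11822 genes, against a median of 3.05 kb, and FPKM of genes with very long models are low for their reads. HNF4A and RXRA were chosen after their values were seen.

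The growth axis was present on both sides. Growth hormone receptor (GHR) had 170, 224 and 285 FPKM. Its target hormone IGF1 had 51.8, 59.1 and 48.6 FPKM, and IGF2 had 89.1, 102 and 96.6 FPKM. The IGF2 gene model was 24.1 kb long, and FPKM of genes with very long models are low for their reads. The acid-labile subunit IGFALS, which holds IGF in plasma, had 33.6, 52.7 and 49.8 FPKM. Among the binding proteins IGFBP4 was the highest at 880.4, 1072 and 844 FPKM, and IGFBP3 had 198, 171 and 201 FPKM. IGFBP1, which insulin lowers and fasting raises, had 401, 286 and 137 FPKM, whereas IGFBP2 had 91.1, 47.8 and 239 FPKM. The order of the libraries for IGFBP1 placed control 1 first and control 3 last, and for IGFBP2 control 3 was first. The glucagon receptor GCGR had 32.2, 29.5 and 26.6 FPKM and the insulin receptor INSR had 17.1, 19.4 and 17.2 FPKM. Secreted hepatokines had a median of 45.2 FPKM, led by RBP4 at 1955 ± 353 FPKM, AHSG, also called fetuin-A, at 1907 ± 371 FPKM and SELENOP.

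Hepatocyte markers led the cell type lists, as the label of liver has it. The 19 hepatocyte markers in the table had a median of 1907 FPKM, all were above 10 FPKM and together they held 11.8%, 12.4% and 17.3% of the FPKM sum. Macrophage and endothelial markers followed. The 13 Kupffer cell and macrophage markers had a median of 30.5 FPKM and were led by the complement C1q chains C1QB at 146 ± 49.7 FPKM and C1QC at 99.5 ± 39.4 FPKM. The 15 endothelial markers had a median of 17.8 FPKM, led by OIT3, a marker of the liver sinusoid, at 96.1 ± 12.1 FPKM and the TGF-beta coreceptor ENG at 44.5 ± 9.99 FPKM. In bulk tissue, fewer cells of a type and less RNA per cell cannot be told apart.

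Stellate cell and fibroblast markers had a median of 6.97 FPKM over 16 genes, led by smooth muscle actin (ACTA2) at 38.02 ± 12.7 FPKM and the smooth muscle myosin MYH11 at 21.3 ± 1.28 FPKM. Cholangiocyte markers, for the cells of bile ducts, had a median of 4.20 FPKM, led by CLDN4 at 88.5 ± 28.1 FPKM and ANXA4 at 54.2 ± 9.43 FPKM. For T and NK cells the marker median was 3.15 FPKM, with the chemokine CCL5 at 11.2 ± 1.22 FPKM and the T cell receptor subunit CD3E at 8.76 ± 2.42 FPKM. Neutrophil markers had a median of 1.44 FPKM, and MPO, which is made in the bone marrow, was at 0 in all 3 libraries. Proliferation genes had a median of 1.07 FPKM and B and plasma cell genes of 0.90 FPKM.

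Markers of tissues outside the liver were mostly near 0. The 12 skeletal muscle markers had a median of 0.01 FPKM, and MYH1, MYH2, CKM, MB and MYOG were at 0 in every library. The highest muscle marker, the troponin TNNI2, had 1.88, 1.73 and 1.73 FPKM. Of the kidney and gut markers, UMOD, AQP2 and SI were at 0, while the lectin LGALS4 had 66.8, 59.1 and 71.1 FPKM. Of the erythroid markers, SLC4A1 and HEMGN were at 0, and beta-globin (HBB) had 27.7, 2.45 and 2.62 FPKM. Of the neuron and Schwann cell markers, NEFL and STMN2 were at 0, and the calcium-binding protein S100B had 2.36, 14.1 and 21.4 FPKM. The exocrine pancreas and gallbladder list, with 6 of 10 genes in the table, had a median of 0.13 FPKM. Its highest member was MUC5AC at 1.57 FPKM. In the adipocyte list the lipid droplet protein CIDEA had 3.18, 6.26 and 5.41 FPKM, and the highest member, CFD at 305 ± 92.3 FPKM, is also complement factor D.

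**Figure D3:**
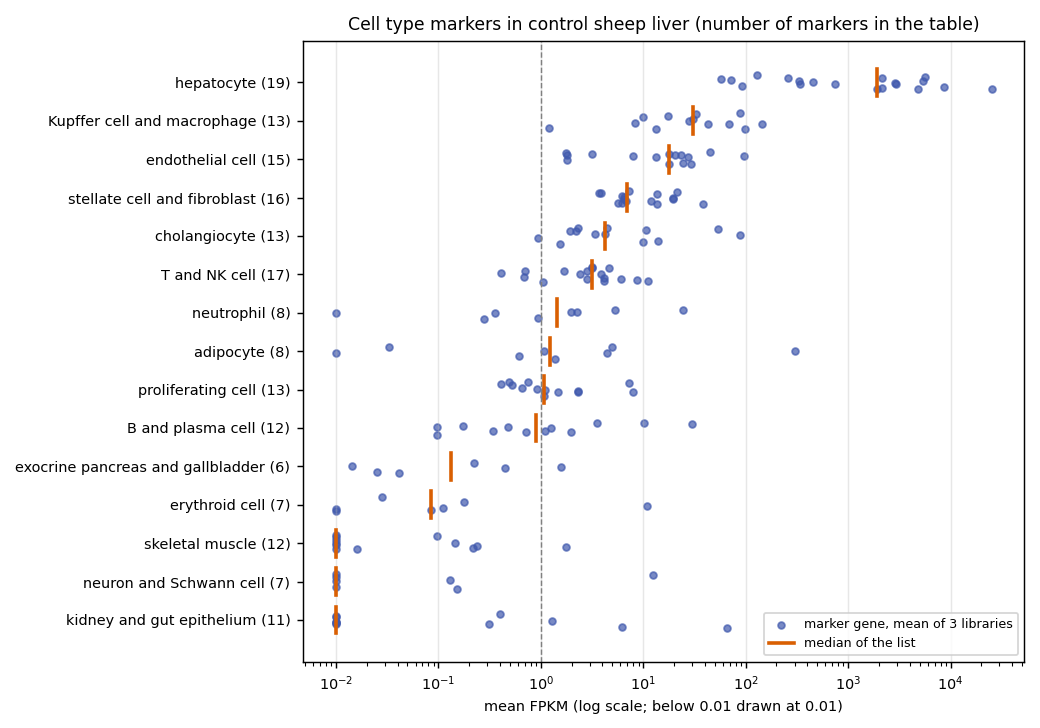
Mean FPKM over the 3 control libraries (log axis, values below 0.01 drawn at 0.01) of each marker in 15 cell type lists, with an orange bar at the median of each list and a dashed line at 1 FPKM. The hepatocyte list lies furthest right with a median of 1907 FPKM, and the muscle, neuron and kidney or gut lists have medians of 0.01 FPKM.

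The median coefficient of variation between the 3 libraries was 20.6% over the 11822 genes, whereas read counting alone would give 5.38%. For the 54 genes at 1000 FPKM or more the median was 26.3%, against 0.47% from counting, so counting error was a small part of their spread. Among the 460 genes with a symbol and at least 100 FPKM, the steadiest was the amino acid transporter SLC38A4 with 139.8, 137 and 139 FPKM. It was followed by ND2 and by FCGRT, the receptor that rescues albumin and immunoglobulin G from breakdown, with 251, 258 and 248 FPKM. VEGFA, the endothelial growth factor, had 112, 116 and 112 FPKM and protein C (PROC), an anticoagulant, had 392, 409 and 408 FPKM. The most variable was the interferon-induced IFI6, and drug-metabolising genes filled several of the next places, with CYP2A6, GSTA1-1, CYP2D6 and AOX1 among the 10.

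Each library was then set against the mean of the other 2 on the log2(FPKM + 1) scale, and a gene was called apart at a difference of at least 1, which is a fold of 2 for abundant genes and understates low ones. This is a description of single libraries. Genes enter by their mean over the same 3 libraries, so a low gene can enter through the library in which it is high. The 3 differences of a gene add up to 0, so a gene apart in 1 library tends to be displaced the opposite way in another. In control 1, 384 of 11822 genes (3.25%) were higher and 194 (1.64%) lower. In control 2, 202 (1.71%) were higher and 155 (1.31%) lower, and in control 3, 190 (1.61%) were higher and 352 (2.98%) lower.

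The median difference over all genes was 0.23 in control 1, -0.11 in control 2 and -0.13 in control 3, so medians of gene lists below are given relative to these. With the libraries scaled by median ratios instead, 205 genes were higher and 318 lower in control 1, 249 higher and 123 lower in control 2, and 279 higher and 277 lower in control 3. Leaving out control 2, 652 genes were higher in control 1 than in control 3 and 287 were lower, and by construction these are the genes lower and higher in control 3. Leaving out control 1, 337 genes were higher in control 2 than in control 3, and leaving out control 3, 400 genes were lower in control 2 than in control 1. Genes without a symbol held 15.3%, 23.4% and 13.01% of the FPKM sum in the 3 libraries, and FPKM values are relative to the reads of their own library.

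**Figure D4:**
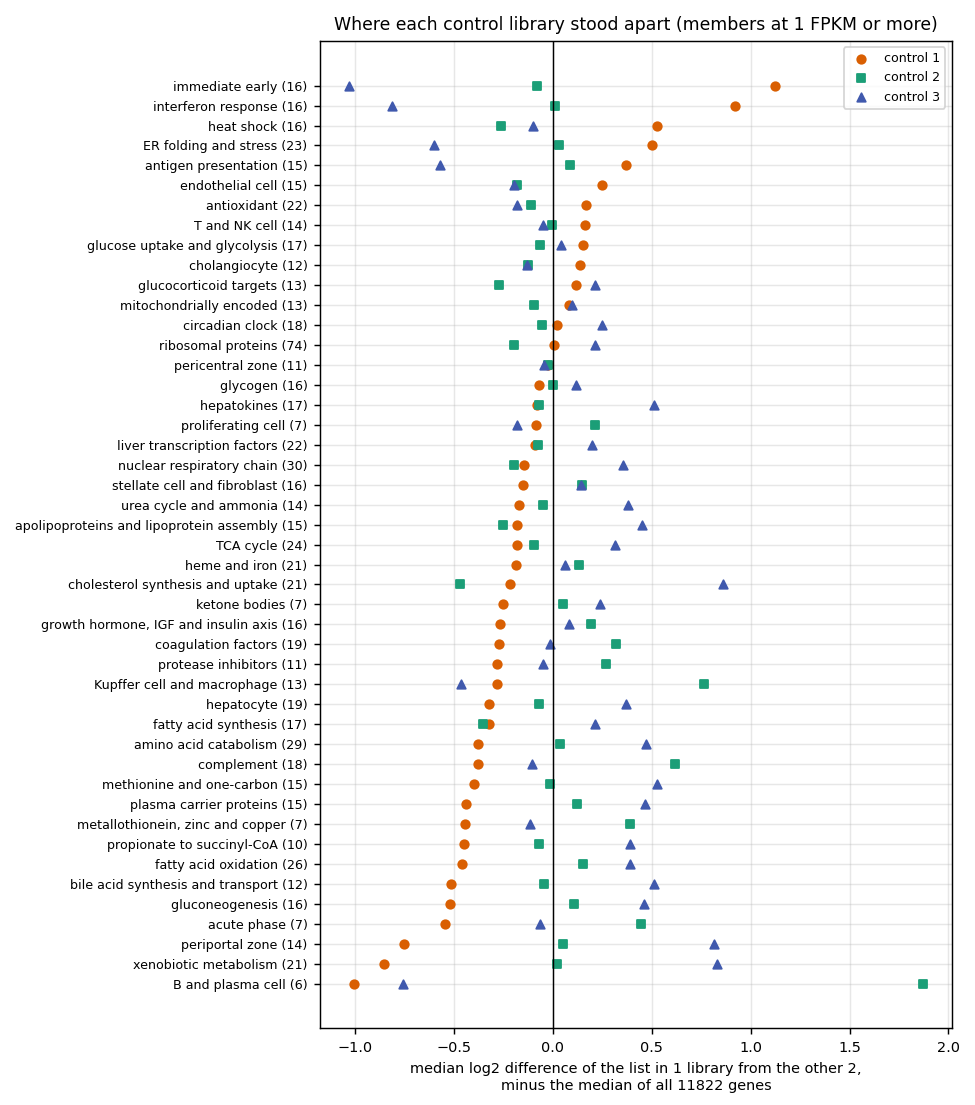
Median log2(FPKM + 1) difference of each gene list in a library from the other 2 libraries, minus the median of all 11822 genes, for lists with at least 6 members at 1 FPKM (number in brackets). Immediate early and interferon genes in control 1 and B and plasma cell genes in control 2 lie furthest to the right, and xenobiotic genes of control 1 and control 3 lie on opposite sides of 0.

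Control 1 had higher stress and signalling transcripts. Of the 16 immediate early genes at 1 FPKM or more, 13 were called higher, against 3.25% of all genes, or 9 with median-ratio scaling. The list median was 1.12 above that of all genes. EGR1, a growth-factor-induced factor, had 32.1 FPKM in control 1, against 6.0 and 8.0 FPKM in controls 2 and 3. The phosphatase DUSP1 had 47.3 FPKM in control 1, against 13.99 and 6.95 FPKM in controls 2 and 3, and JUN had 35.4 FPKM in control 1, against 14.5 and 8.36 FPKM in controls 2 and 3. ZFP36, an RNA-binding protein that shortens the life of cytokine transcripts, had 74.7 FPKM in control 1, against 40.9 and 27.3 FPKM in controls 2 and 3, whereas GADD45A, the most abundant member, had 57.1 FPKM in control 1, against 74.4 and 41.95 FPKM in controls 2 and 3. All but GADD45A of these 5 were highest in control 1. Against control 2 alone 7 of the 16 were higher, against control 3 alone 12, and none was lower in either. EGR1, DUSP1 and JUN were chosen after their values were seen.

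Interferon-induced genes followed the same order. Of 16 measured, 9 were called higher in control 1 and 1 lower, against 3.25% and 1.64% of all genes. With median-ratio scaling 8 were called higher. The list median was 0.92 above that of all genes. IFI6 had 257 FPKM in control 1, against 47.5 and 10.3 FPKM in controls 2 and 3, a log2 difference of 3.47. ISG15, a ubiquitin-like modifier, had 100.1 FPKM in control 1, against 6.53 and 5.41 FPKM in controls 2 and 3. The antiviral GTPase MX1, chosen after its values were seen, had 46.5 FPKM in control 1, against 12.6 and 8.67 FPKM in controls 2 and 3. The chemokines CXCL9 and CXCL10, which interferon-gamma induces, went the other way. CXCL10 had 3.02 FPKM in control 1, against 3.51 and 9.43 FPKM in controls 2 and 3 and CXCL9 had 1.61 FPKM in control 1, against 3.56 and 5.93 FPKM in controls 2 and 3, and both were chosen after their values were seen. Against control 2 alone 6 of the 16 interferon genes were higher in control 1.

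Protein-folding genes were also higher in control 1. Of 23 genes of endoplasmic reticulum folding, all were above the mean of the other 2 libraries and 21 were above the median of all genes. Of the 23, 4 were called higher, against 3.25% of all genes, with 9 called against control 3 alone. The chaperone HSPA5 had 365 FPKM in control 1, against 154 and 94.3 FPKM in controls 2 and 3, the calcium-binding chaperone CALR had 440.1 FPKM in control 1, against 273 and 179.6 FPKM in controls 2 and 3 and the disulfide isomerase P4HB had 675 FPKM in control 1, against 616 and 549 FPKM in controls 2 and 3. Of 16 heat shock genes, 15 were above the median of all genes. Of the 16, 5 were called higher, against 3.25% of all genes, or 3 with median-ratio scaling. HSPA6, a strictly stress-induced HSP70, had 36.5 FPKM in control 1, against 0.844 and 0.897 FPKM in controls 2 and 3, a log2 difference of 4.33. HSPB1 had 515 FPKM in control 1, against 324 and 345 FPKM in controls 2 and 3 and HSPA8, the constitutive HSP70, had 409 FPKM in control 1, against 223 and 267 FPKM in controls 2 and 3. The heme oxygenase HMOX1 had 219.7 FPKM in control 1, against 45.8 and 33.2 FPKM in controls 2 and 3 and the glucocorticoid-induced FKBP5 had 29.1 FPKM in control 1, against 2.92 and 5.84 FPKM in controls 2 and 3, both chosen after their values were seen with HSPA5.

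Markers of other cells differed between the libraries as well. The summed level of the 8 neutrophil markers in the table was 46.2 FPKM in control 1, against 37.9 and 23.05 FPKM in controls 2 and 3. The highest of them, the Fc receptor FCGR3A, had 23.7 FPKM in control 1, against 29.9 and 20.04 FPKM in controls 2 and 3 and did not share that order. CSF3R, the receptor of a granulocyte growth factor, had 11.4 FPKM in control 1, against 3.40 and 1.18 FPKM in controls 2 and 3. Of the 4 markers at 1 FPKM or more, 3 were called higher, against 3.25% of all genes, or 2 against control 2 alone. Only these 4 of the 8 entered, by a mean that includes control 1, so the count may be raised by that filter. The 7 erythroid markers summed to 28.4 FPKM in control 1, against 2.65 and 2.93 FPKM in controls 2 and 3, nearly all of it HBB at 27.7 against 2.45 and 2.62 FPKM. Endothelial markers summed to 393 FPKM in control 1, against 316 and 283 FPKM in the others, and Kupffer markers to 553 FPKM, against 798 and 409 FPKM. The endothelial list median was only 0.25 above that of all genes, with 1 of 15 called higher, against 3.25% of all genes. Its leading marker OIT3 had 103 FPKM in both control 1 and control 2. MPO, SLC4A1 and HEMGN were at 0 throughout. The part of these cells in the stress and interferon values was not tested. GPNMB, a membrane protein of macrophages, had 24.01 FPKM in control 1, against 1.60 and 0.213 FPKM in controls 2 and 3, and FABP5, a fatty acid binding protein, had 16.4 FPKM in control 1, against 0.948 and 0.968 FPKM in controls 2 and 3.

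Lower in control 1 were xenobiotic genes, of which 5 of 21 were called lower against 1.64% of all genes, with none above the median of all genes and a list median of -0.85 relative to it. The retinal dehydrogenase ALDH1A1 had 193 FPKM in control 1, against 487 and 1068 FPKM in controls 2 and 3 and the aldehyde oxidase AOX1 had 63.3 FPKM in control 1, against 148 and 351 FPKM in controls 2 and 3. With median-ratio scaling 9 were called lower. ALDH1A1 was chosen after its values were seen. Among single genes, the leukocyte adhesion molecule JAML had 5.94 FPKM in control 1, against 96.4 and 76.1 FPKM in controls 2 and 3, the cytokine IL32 had 0.246 FPKM in control 1, against 14.7 and 18.1 FPKM in controls 2 and 3 and ANGPTL7, an angiopoietin-like protein, had 0.747 FPKM in control 1, against 10.8 and 42.1 FPKM in controls 2 and 3.

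Control 2 had higher complement and acute phase transcripts and plasma cell genes. None of the 18 complement genes was called at a difference of 1, yet 16 were above the mean of the other 2 libraries and all 18 were above the median of all genes, by a median of 0.62. Of 7 acute phase genes, all were above the mean of the other 2 libraries and 2 were called higher, against 1.71% of all genes, or 1 against control 1 alone. Ceruloplasmin had 988 FPKM in control 2, against 651 and 296 FPKM in controls 1 and 3 and LCN2, an iron-sequestering lipocalin, had 79.7 FPKM in control 2, against 12.3 and 24.2 FPKM in controls 1 and 3. ITIH4 had 2240.5 FPKM in control 2, against 939 and 317 FPKM in controls 1 and 3 and the heme carrier hemopexin (HPX) had 2177 FPKM in control 2, against 1165 and 955 FPKM in controls 1 and 3. The mitochondrial superoxide dismutase SOD2 had 722 FPKM in control 2, against 237 and 193 FPKM in controls 1 and 3 and the secreted glutathione peroxidase GPX3 had 236 FPKM in control 2, against 59.9 and 46.1 FPKM in controls 1 and 3. Control 2 was the highest library for all 6, of which LCN2, HPX and SOD2 were chosen after their values were seen.

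Of 6 B and plasma cell genes at 1 FPKM or more, 5 were called higher in control 2, against 1.71% of all genes. Only these 6 of the 12 in the table entered, by a mean that includes control 2. MZB1 entered through its level in control 2, so the count and the list median are partly set by that filter. The list median was 1.87 above that of all genes. JCHAIN, the joining chain of secreted antibodies, had 60.5 FPKM in control 2, against 14.8 and 14.5 FPKM in controls 1 and 3 and CR2, a complement receptor, had 15.9 FPKM in control 2, against 7.53 and 7.18 FPKM in controls 1 and 3. MZB1, a chaperone of antibody assembly chosen after its values were seen, had 9.83 FPKM in control 2, against 0.648 and 0.0938 FPKM in controls 1 and 3. The B cell gene CD79A, likewise chosen, had 1.39 FPKM in control 2, against 2.17 and 2.33 FPKM in controls 1 and 3 and was the member not called. The 12 markers in the table summed to 96.4 FPKM in control 2, against 26.7 and 26.6 FPKM in controls 1 and 3. Kupffer markers summed to 798 FPKM in control 2, against 553 and 409 FPKM, with 2 of 13 called higher (3 against control 1 alone or control 3 alone, and 5 with median-ratio scaling) and the scavenger receptor MARCO, chosen after its values were seen, at 160.4 FPKM in control 2, against 57.5 and 49.3 FPKM in controls 1 and 3. C1QA, C1QB and C1QC stand in both the complement and the Kupffer list. The part of these cells in the complement values was not tested.

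Further single genes were apart in control 2. The citrate carrier SLC13A5 had 163 FPKM in control 2, against 50.8 and 8.75 FPKM in controls 1 and 3. SPP1 (osteopontin), also a bile duct marker, had 33.1 FPKM in control 2, against 8.94 and 0.158 FPKM in controls 1 and 3, and the serpin SERPINI2 had 85.2 FPKM in control 2, against 14.2 and 1.09 FPKM in controls 1 and 3. For each of these, control 3 was the lowest as well. RXRG, the gamma form of the retinoid X receptor, was listed at 0.0313 FPKM in control 2, against 15.2 and 19.5 FPKM in controls 1 and 3, and the ectonucleotidase ENPP3 had 2.42 FPKM in control 2, against 22.1 and 17.7 FPKM in controls 1 and 3. The squalene epoxidase SQLE had 5.32 FPKM in control 2, against 25.4 and 34.4 FPKM in controls 1 and 3, and 3 of 21 cholesterol genes were called lower, against 1.31% of all genes, or 9 against control 3 alone. None of the 30 nuclear respiratory chain genes was above the mean of the other 2 libraries in control 2, and 2 were above the median of all genes.

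Control 3 had higher xenobiotic and sterol transcripts. Of 21 xenobiotic genes, 5 were called higher, against 1.61% of all genes, 20 were above the median of all genes and the list median was 0.83 above it. CYP2A6 had 1678 FPKM in control 3, against 307 and 383 FPKM in controls 1 and 2 and CYP2D6 had 213 FPKM in control 3, against 61.8 and 54.3 FPKM in controls 1 and 2. GSTA1 had 80.1 FPKM in control 3, against 7.31 and 18.7 FPKM in controls 1 and 2, and GSTA1-1, a near copy by name, had 1164 FPKM in control 3, against 262 and 244 FPKM in controls 1 and 2. For AOX1, ALDH1A1 and catalase, too, control 3 was the highest library, and control 1 was the lowest. Against control 1 alone 7 of the 21 were higher and against control 2 alone 6. Of 21 cholesterol genes 6 were called higher, with a list median 0.86 above that of all genes. Against control 2 alone 9 were higher, but against control 1 alone 2.

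Immediate early, interferon and endoplasmic reticulum folding genes were lower in control 3, whereas heat shock genes were close to the median of all genes there, at -0.10 relative to it with 2 of 16 called lower and none against control 2 alone. Of 16 immediate early genes 8 were called lower, against 2.98% of all genes, and of 16 interferon genes 7 were called lower and 2, CXCL9 and CXCL10, higher. The list medians relative to all genes were -1.03 and -0.81. Of 23 endoplasmic reticulum folding genes 6 were called lower, or 4 with median-ratio scaling, and none was above the mean of the other 2. Likewise, none of 15 antigen presentation genes was above the mean of the other 2, but only 1 was called lower, against 2.98% of all genes. None was called with median-ratio scaling or against control 2 alone, and 3 were lower against control 1 alone. CD74, the invariant chain of MHC class II, had 191 FPKM in control 3, against 329 and 292 FPKM in controls 1 and 2. Neutrophil markers summed to 23.05 FPKM in control 3, against 46.2 and 37.9 FPKM, and their part in these values was not tested. Against control 2 alone, 5 of the 16 immediate early genes and 2 of the interferon genes were lower in control 3, and no folding gene. Against control 1 alone, 12, 12 and 9 genes of these lists were lower. Lysozyme (LYZ) had 2.23 FPKM in control 3, against 56.7 and 24.2 FPKM in controls 1 and 2, the lipid receptor S1PR3 had 1.98 FPKM in control 3, against 26.9 and 21.8 FPKM in controls 1 and 2 and the adhesion molecule BCAM had 15.6 FPKM in control 3, against 109.6 and 149.7 FPKM in controls 1 and 2.

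**Figure D5:**
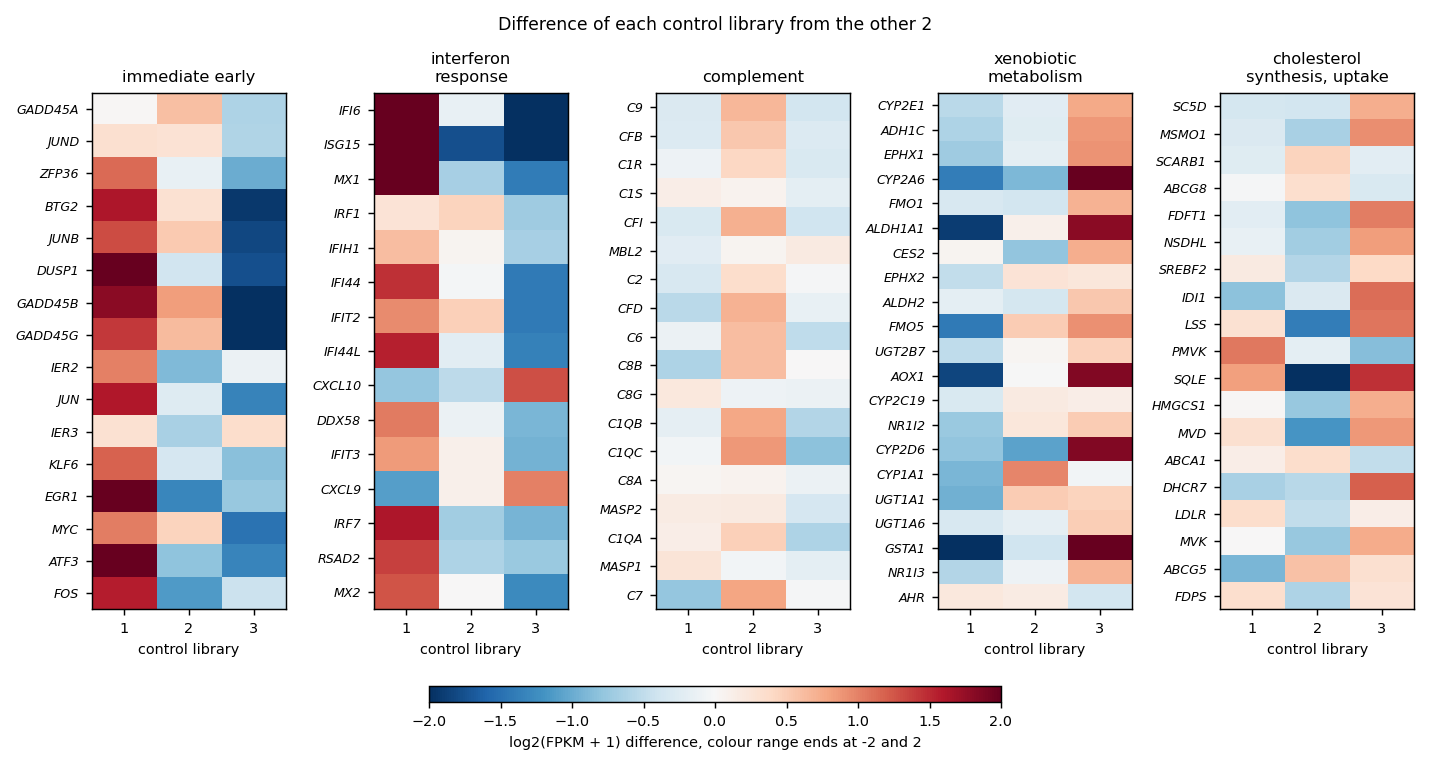
Difference of each control library from the other 2 in log2(FPKM + 1), for members at 1 FPKM or more of 5 gene lists, red for higher and blue for lower, with the colour range ending at -2 and 2. The immediate early and interferon columns of control 1 are mostly red and those of control 3 mostly blue, while the complement column of control 2 and the xenobiotic column of control 3 are mostly red.

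The largest differences were in genes without a symbol. LOC101120204, the sixth most abundant gene by mean, had 16271 FPKM in control 2, against 523 and 24.9 FPKM in controls 1 and 3. LOC101102413, the seventh, had 10565 FPKM in control 2, against 4942 and 658 FPKM in controls 1 and 3. In the reference assembly the first lies among 31 genes of the table without a symbol between HPS5 and VWA5A, of which 6 were at 1 FPKM or more, and these 31 summed to 22227 FPKM in control 2, against 3166 and 419 FPKM in controls 1 and 3. Of the 6, 4 were called higher in control 2, against 1.71% of all genes, and 5 lower in control 3, against 2.98%. The stretch was taken because it holds LOC101120204, which is itself among the 6. That gene alone gave 16271 of the 22227 FPKM in control 2, so the sum largely restates it. LOC101102413 lies between TXNL4B and DHODH. The files and the reference name neither gene, and no function is given to them here. Control 2 was the highest library for both, and control 3 the lowest.

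Few genes reached 10 FPKM in 1 library and stayed below 1 FPKM in both others, which is not absence at this depth. There were 5 such genes in control 1, all with symbols, namely AURKC, FABP5, FBXL21P, HSPA6 and ND6. There were 2 such genes in control 2, of which TRIM6 has a symbol, and 2 in control 3 with no symbol. AURKC, an Aurora kinase of germ cells, had 23.2 FPKM in control 1, against 0.915 and 0.675 FPKM in controls 2 and 3, and TRIM6, a ubiquitin ligase, had 16.7 FPKM in control 2, against 0.863 and 0.146 FPKM in controls 1 and 3. The transporter SLCO4A1 was below 0.1 FPKM in control 3, at 0.0633 against 4.17 and 13.02 FPKM.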

How the data were processed

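Gene expression was measured as FPKM in 1 table of 21257 genes and 9 libraries that the authors deposited, per the file headers, and the 3 control columns were used. Which aligner, counter and annotation made the values is not given in the sources used here. Builds named in the submitters' processing notes are GRCm38 and mm10, both of mouse, while gene names are those of sheep, so no coordinates are given. Of the names, 20169 matched the reference table of ARS-UI_Ramb_v3.0, and 13 mitochondrial tags were given symbols from it. Library fragments were about 240 bp, per the labels' protocols. Strand use in counting is not given.

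Whole reads were recovered from the FPKM steps for all 17402 genes above 0 in at least 2 of 9 libraries, within 0.01 reads. They served for depth, gene model length and counting error only. Levels are means of FPKM over 3 libraries with SD. A library's difference is its log2(FPKM + 1) minus the mean of the other 2, on genes with a mean of at least 1 FPKM. Python 3.11.15, pandas 2.3.3, numpy 2.4.6 and matplotlib 3.10.9 were used, and the steps were tested on simulated data. No test between groups was made.

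The 53 lists (38 of functions, 15 of cell types) and the members named were chosen with earlier results of these data known. Of 993 entries 890 were in the table, some in several lists, and the others were not analysed here. Named by rule were the 30 highest genes with a symbol, the 3 highest of each function list with every member of 7 metabolic and growth lists, and the highest 2 and any at 0 of each cell type list. To these came the 8 genes with a mean of at least 5 FPKM and the largest difference per library and direction, and the 10 steadiest and 10 most variable at 100 FPKM or more. Some genes that these rules name are not reported here. Promoter motifs were not analysed here.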

Additional observations from a re-analysis of the deposited data

How the results depend on the processing

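Counts of genes apart in a library depended on the scale. With a pseudocount of 0.1, 679 genes were higher in control 1, 310 higher and 251 lower in control 2, and 635 lower in control 3. With a pseudocount of 5, the higher and lower counts were 137 and 89 in control 1, 88 and 71 in control 2, and 112 and 139 in control 3. With genes of at least 10 FPKM only they were 161 and 97 in control 1, 93 and 74 in control 2, and 123 and 162 in control 3, from fewer genes. Median-ratio scaling gave 205 higher and 318 lower in control 1, and scaling to a common sum gave 685 higher in control 1 and 612 lower in control 3. With a library left out, control 1 had 400 to 652 higher, control 2 had 239 to 337 higher and 214 to 400 lower, and control 3 had 214 to 287 higher and 337 to 652 lower. The cause of these shifts was not tested.

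The share of the highest 10 genes was 16.7% without mitochondrial genes, and the other 5 alternatives stayed within the SD. The number of genes at 1 FPKM was 11027 to 13088 over its 5 alternatives. Of 265 alternative list medians 33 moved by more than the limit, 17 of them on leaving out members below 1 FPKM. Of 288 alternative differences of named genes, 286 stayed on their side of the threshold. HSPA6 in control 2 was -0.04 without control 1, and RXRG in control 3 was 0.34 without control 2. None turned round. No paired analysis was possible because a single group is described.

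Depth limits genes under about 0.07 FPKM. The 3 libraries, the missing counter and strand, and the gene models limit the rest.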

Other observations

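Genes that mark the zones of the liver lobule were present from both ends. Of 16 periportal genes 14 were in the table, with a median of 176 FPKM, and of 16 pericentral genes 12, with a median of 24.1 FPKM. Beside CYP2E1 and GLUL the pericentral list held the calcium-binding protein RGN, at 385, 293 and 775 FPKM, and the Wnt pathway receptor LGR5, chosen after its values were seen, at 3.09, 0.721 and 2.84 FPKM. The periportal adhesion protein CDH1, likewise chosen, had 71.5, 59.2 and 55.4 FPKM. After subtraction of the median of all genes, the periportal list stood at -0.75 in control 1, 0.05 in control 2 and 0.81 in control 3, and the pericentral list at -0.03, -0.02 and -0.05. Pericentral members did not move together, and 5 of 11 were above the median of all genes in control 3. There the log2 difference from the other libraries was 0.76 for CYP2E1, 1.20 for RGN and -0.64 for GLUL.

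Clock genes were measured at 1 FPKM or more for 18 of 19 members, with a median of 13.8 FPKM. BHLHE40 had 61.9, 67.4 and 69.01 FPKM and the output factor DBP had 23.7, 29.1 and 41.3 FPKM. The core activators were lower, with ARNTL at 3.02 ± 0.760 FPKM and CLOCK at 2.11 ± 0.183 FPKM, both chosen after their values were seen. No clock gene was called apart in any control library, beside 1.31% to 3.25% of all genes per library and direction. A list of 18 genes is too short to differ from such shares. The hours at which the livers were taken are not given in the labels.

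Glucocorticoid-responsive genes were not all displaced one way. HSD11B1, which regenerates active cortisol in liver, had 702, 464 and 889 FPKM, and PCK1 was highest in control 3. SGK1, a kinase of salt balance chosen after its values were seen, had 42.8, 34.9 and 9.49 FPKM. Of the 13 measured, 4 were called higher and 1 lower in control 1, beside 3.25% and 1.64% of all genes. With median-ratio scaling 2 were called higher in control 1. In control 3, 1 was higher and 3 lower (2 against control 2 alone), beside 1.61% and 2.98%. Of 15 antigen presentation genes, CALR was the highest, CD74 had a mean of 271 ± 71.6 FPKM and B2M, the light chain of MHC class I, had 139.6, 226 and 178 FPKM.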
